A study of Mus musculus with 6 samples.

Results

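The genes described here are 10 secreted signals through which stromal cells can recruit or sustain myeloid cells: the CC chemokines Ccl2, Ccl7, Ccl8, Ccl11, Ccl5 and Ccl20, the myeloid growth factors Csf1, Il34 and Csf3, and the cytokine Tslp. They were chosen by symbol from the 14228 genes of the count table, and all 10 had a row there. RNA 3′ ends were counted in 6 libraries of sorted mouse stomach cells: 3 from stomachs with induced cancer, whose cells are called cancer-associated fibroblasts (CAF), and 3 from control stomachs (normal). All mice carried the transgenes of the iLgr5;GLI2A gastric cancer model, in which an active form of the Hedgehog factor GLI2 is switched on from Lgr5-expressing cells, and were 8 weeks old. Mice of the CAF group were given tamoxifen, dissolved in corn oil, by gavage over 5 days. Doxycycline chow followed over 3 weeks, and during the first 3 days the drinking water held doxycycline too. Mice of the normal group received corn oil with neither drug, so the drugs and the cancer cannot be told apart. CAF libraries 1, 2 and 3 held cells of 1, 2 and 2 mice, and normal libraries 1, 2 and 3 cells of 1, 1 and 2 mice, as far as the numbers in the sample titles give them. The sort took live podoplanin-positive cells after removal of cells with CD31, CD45 or EpCAM. Total counts ranged from 644522 to 6422568 among CAF libraries and from 768420 to 3259644 among normal libraries.

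CC chemokines are small secreted proteins that guide leukocytes along gradients through receptors of the CCR family. Those of the monocyte chemoattractant group act mainly on monocytes, and eotaxins act on eosinophils. Csf1 and Il34 are unrelated proteins that bind the same receptor, Csf1r, and keep macrophages alive, while Csf3 (granulocyte colony-stimulating factor) drives the production of neutrophils in the bone marrow. Fibroblasts are a known source of several of these signals in inflamed tissue and in tumours.

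The libraries differed in their content of fibroblast and gland transcripts. Summed over the 10 fibroblast markers checked, all with counts, the level was 9264 to 28388 CPM in CAF libraries and 4783 to 12584 CPM in normal libraries (CPM, counts divided by the scaled library size of edgeR and set to a common total). Markers of gastric gland epithelium, 20 of 22 of which had counts, summed to 5596 to 7792 CPM in CAF libraries and to 38482 to 237240 CPM in normal libraries. In this sum normal libraries 1 and 2 (237240 and 161190 CPM) stood apart from normal library 3 (38482 CPM). Most of it in normal libraries 1 and 2 came from Pgc, at 159240, 94151 and 11196 CPM in normal libraries 1 to 3. Not every marker had this order. Tff1 was at 14945, 9393 and 14842 CPM, Gkn1 at 4416, 1975 and 5331 CPM and Gkn2 at 3100, 1943 and 3493 CPM in these libraries. The 4 genes are named after their values were seen. The sort gene Pdpn was at 27.8, 121 and 119 CPM in CAF libraries 1 to 3 and at 5.71, 34.2 and 18.8 CPM in normal libraries 1 to 3. Epcam, which the sort selected against, was at 233, 127 and 114 CPM in CAF libraries 1 to 3 and at 149.8, 78.5 and 13.8 CPM in normal libraries 1 to 3. It was highest in CAF library 1, and within the normal libraries it had the order of the gland sum. In such bulk samples fewer cells of a type and less RNA per cell cannot be told apart.

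**Figure D1:**
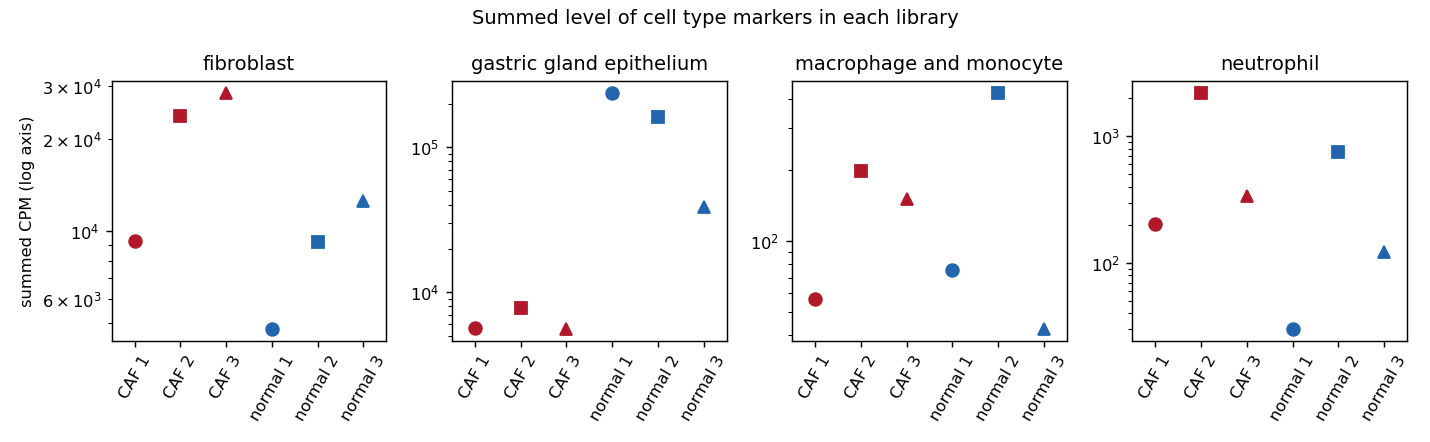
Summed level of 4 cell type marker lists in each library, in CPM on a log axis (red, CAF; blue, normal; 1 point per library). The gland sum is 38482 CPM or more in every normal library and 7792 CPM or less in every CAF library.

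Ccl7 and Csf3 were the 2 genes of the 10 with the clearest separation between CAF and normal libraries. Ccl7 was 2.96-fold higher in CAF and Csf3 11.7-fold higher, yet neither passed the threshold of 0.05 after adjustment over all 10148 genes tested with edgeR's quasi-likelihood test. A filter on low counts kept 7 of the 10 genes, leaving out Ccl5, Ccl20 and Tslp. Of these 7, Ccl7 and Csf3 (2 of 7) had every CAF library above every normal library, against 10.6% of all genes tested, and 0 had every CAF library below, against 9.35%. By edgeR 0 of the 7 were called higher and 0 lower, where 0.897% and 0.207% of all genes tested were called higher and lower. At an unadjusted p under 0.05, Ccl7 and Csf3 (2 of 7) were higher, against 7.37% of all genes tested, and 0 were lower, against 7.97%. Csf3 passed the filter only through its CAF counts, so its place among the 7 was set by the group where it is high, and nothing is read from 2 of 7 against the shares of all genes. DESeq2 called the same 2 of the 10 genes higher, against 3.12% of genes, and 0 lower, against 4.17%. Limma-voom called 0 of the 7, against 0.483% of genes higher and 0.158% lower. The authors' deposited table, which comes from DESeq2 per the submitters' processing notes, has adjusted p-values under 0.05 for Ccl7 and Csf3 alone among the 10, against 2.76% of its genes higher and 3.61% lower. The median log2 fold change was 0.47 over the 4 CC chemokines that passed the filter and -0.52 over the 3 growth factors that passed it, beside 0.06 over all genes tested.

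**Figure D2:**
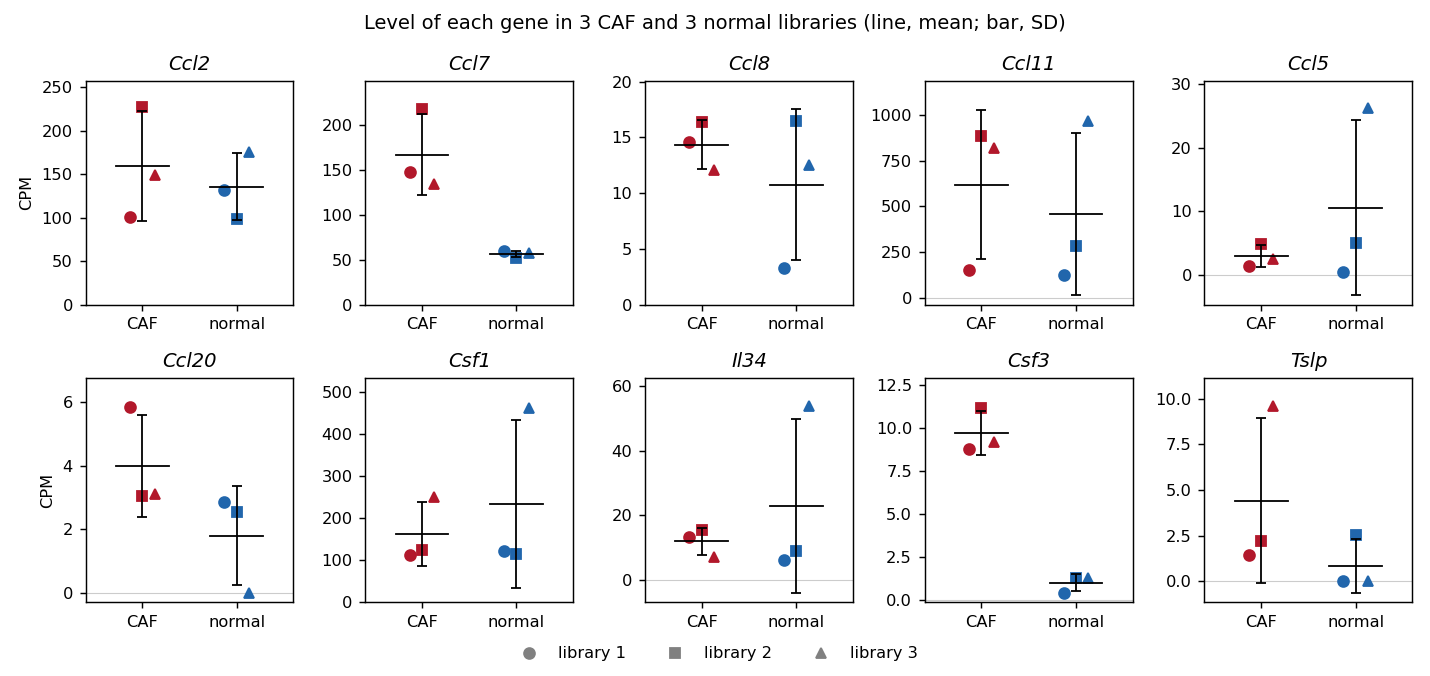
Level of each of the 10 genes in CPM, by library (red, CAF; blue, normal; marker shape, library number), with the mean and SD of each group (n = 3 each). Ccl7, Csf3 and Ccl20 show no overlap between the groups, and normal library 3 is the highest point for Ccl11, Ccl5, Csf1 and Il34.

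Ccl2, Ccl7, Ccl11 and Ccl8 lie in this order, with Ccl12 between the last pair, on the plus strand of chromosome 11 within 81.2 kb (mm10, 82035571 to 82116799). Ccl2 is at chr11:82035571-82037453, Ccl7 at chr11:82045712-82047525, Ccl11 at chr11:82057823-82062955, Ccl12 at chr11:82101845-82103400 and Ccl8 at chr11:82115185-82116799. They are related protein-coding genes, so that reads could in principle be assigned to the wrong one. Their coding sequences are shown around the pair of neighbouring cysteine codons that gives the CC family its name, from the GENCODE M21 transcripts (mm10 chromosome 11, coding strand, 5′ to 3′), with the cysteine codons in capitals.
Ccl2: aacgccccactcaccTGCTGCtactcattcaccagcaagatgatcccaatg
Ccl7: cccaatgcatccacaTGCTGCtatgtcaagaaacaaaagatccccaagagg
Ccl8: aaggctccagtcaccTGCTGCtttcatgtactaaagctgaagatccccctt
Ccl11: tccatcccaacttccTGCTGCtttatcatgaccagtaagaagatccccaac
Ccl12: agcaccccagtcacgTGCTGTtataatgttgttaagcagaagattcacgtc
The windows show where these relatives differ around a codon pair that they have in common. Over these 51 bases Ccl7 matched Ccl2 at 23 bases, and the closest pair, Ccl8 and Ccl12, matched at 35. The longest stretch that Ccl7 and Ccl2 transcripts share without a mismatch was 23 bases, and in their last 500 bases, near which 3′ counting takes its reads, it was 11 bases. No pair among the 5 genes shared more than 15 bases there. An antisense gene, Gm17268, overlaps Ccl2, and whether the counting used strand is not given in the sources used here.

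Ccl2, the monocyte chemoattractant MCP-1, was at 101, 227 and 149 CPM in CAF libraries 1 to 3 and at 132, 98.8 and 175 CPM in normal libraries 1 to 3. The groups overlapped, with CAF library 2 above every normal library. Its log2 fold change was 0.24 ± 0.39 (SE; adjusted p = 0.837 by edgeR), with a negative sign in 4 of 17 alternative settings. No difference in Ccl2 was detectable at this depth and spread.

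Ccl7, the monocyte chemoattractant MCP-3, was at 148, 218 and 134 CPM in CAF libraries 1 to 3. In normal libraries 1 to 3 it was at 59.2, 51.9 and 57.5 CPM. All CAF libraries were thus above all normal libraries, and the 3 normal libraries were close together. The averages were 166 ± 44.9 CPM in CAF and 56.2 ± 3.80 CPM in normal libraries (SD, n = 3 each). On the log2 scale the difference was 1.56 ± 0.31 (SE; adjusted p = 0.0638 by edgeR), inside the range of -1.55 to 1.71 between the 5th and 95th percentile of all genes tested. It was positive in all 17 alternative settings. Adjusted p was 0.00107 with DESeq2 and 0.0378 by edgeR without normal library 3, and up to 0.296 with another library left out. Against normal library 3 alone the log2 fold change was 1.59, a value with no replicate on the normal side, in a fit that calls 0 genes and assumes that the lone library varies like the CAF libraries.

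Since Ccl2 and Ccl7 were counted in the same libraries, their ratio does not depend on any scaling between libraries. This ratio was chosen after the values were seen. Ccl7 made up 59.4%, 48.9% and 47.2% of the counts of both genes in CAF libraries 1 to 3, with 95% exact binomial intervals of 51.6% to 66.9%, 47.2% to 50.7% and 45.1% to 49.4%. In normal libraries 1 to 3 it made up 30.9%, 34.5% and 24.7%, with intervals of 26.8% to 35.3%, 26.0% to 43.7% and 18.7% to 31.6%. Every CAF library lay above every normal library, and no interval of a CAF library met that of a normal library. The geometric mean of Ccl7 counts per Ccl2 count was 1.08 in CAF and 0.426 in normal libraries, a log2 difference of 1.34. No test is given for it, since its separation was what prompted it. The intervals cover counting error only.

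**Figure D3:**
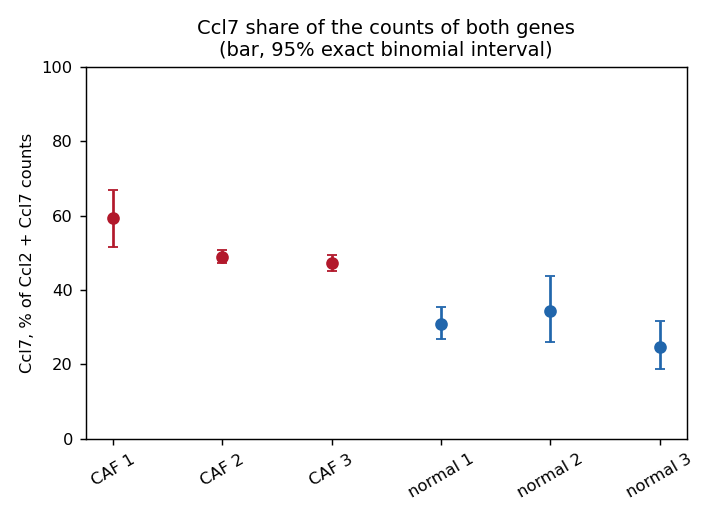
Share of Ccl7 in the summed counts of Ccl2 and Ccl7 in each library, in percent, with 95% exact binomial intervals (red, CAF; blue, normal). CAF libraries lie between 47.2% and 59.4% and normal libraries between 24.7% and 34.5%.

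The 3 genes whose level over the 6 libraries was most like that of Ccl7 were Fxyd6, S100a11 and Ppic. Likeness was the root mean square difference of mean-centred log2(CPM + 1), which was 0.16, 0.22 and 0.22 for these genes. Fxyd6 was at 244, 367 and 301 CPM in CAF libraries 1 to 3 and at 99.2, 84.9 and 100.1 CPM in normal libraries 1 to 3. For Ccl2 they were Ccdc74a, Tm2d1 and Zswim6, at 0.12, 0.16 and 0.16. The 2 sets had no gene in common.

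Ccl8, a chemokine that acts through Ccr8 in the mouse, was at 14.6, 16.4 and 12.0 CPM in CAF libraries 1 to 3 and at 3.26, 16.5 and 12.5 CPM in normal libraries 1 to 3. Normal library 1 alone was low, and the other 5 libraries lay within a narrow range. Its log2 fold change was 0.50 ± 0.62 (SE; adjusted p = 0.776 by edgeR) and was -0.042 without normal library 1. With limma-voom on all 6 libraries it was 1.19 ± 0.59 (SE; adjusted p = 0.308 by limma-voom).

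Ccl11, eotaxin, attracts eosinophils through Ccr3. It was at 149, 888 and 821 CPM in CAF libraries 1 to 3 and at 126, 284 and 965 CPM in normal libraries 1 to 3. Each group thus held libraries at both ends of the range, CAF library 1 and normal library 1 being the lowest and normal library 3 the highest. Between the groups the log2 fold change was 0.44 ± 0.85 (SE; adjusted p = 0.869 by edgeR). It was -0.018 without normal library 1 and 1.56 without normal library 3, and it was negative in 4 of 17 alternative settings. The fibroblast markers summed to 9264, 23919 and 28388 CPM in CAF libraries 1 to 3 and to 4783, 9181 and 12584 CPM in normal libraries 1 to 3. Library 1 was thus the lowest of its group both in these markers and in Ccl11, and the part of fibroblast content in Ccl11 was not tested.

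Ccl5 and Ccl20 were too sparsely counted for the fit on filtered genes. Ccl5 (RANTES; chr11:83525778-83530518, minus strand), a chemokine of T cells and monocytes, had 1, 35 and 18 counts in CAF libraries 1 to 3 and 1, 4 and 21 counts in normal libraries 1 to 3. In CPM normal library 3 stood out, at 26.3 CPM, where the other 5 libraries had 5.07 CPM or less. Without the filter the log2 fold change was -1.58 ± 1.15 (SE; adjusted p = 0.552 by edgeR), and without normal library 3 it was 0.72 ± 1.11. Of the 11 T and natural killer cell markers listed only Cd3d, named for that reason, had a row, with 8 counts in CAF library 2 and 0 in normal library 3. A count of 0 in normal library 3 allows up to 3.75 CPM (3 counts), and the source of Ccl5 was not tested.

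Ccl20 (chr1:83116766-83119167) attracts cells that carry Ccr6. It was at 5.85, 3.04 and 3.11 CPM in CAF libraries 1 to 3 and at 2.86, 2.53 and 0 CPM in normal libraries 1 to 3. The groups did not overlap, but CAF libraries 2 and 3 and normal libraries 1 and 2 differed by little, and a count of 0 in normal library 3 allows up to 3.75 CPM (3 counts). Without the filter it differed by 0.86 ± 0.87 on the log2 scale (SE; adjusted p = 0.691 by edgeR), and a pooled ratio of 1.44 had a 95% exact counting interval of 0.698 to 3.32.

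Csf1 (chr3:107741048-107760469, minus strand), the main macrophage growth factor, was at 111, 125 and 249.7 CPM in CAF libraries 1 to 3 and at 122, 114 and 464 CPM in normal libraries 1 to 3. Most libraries of both groups lay near each other, with CAF library 3 and normal library 3 above them. Its log2 fold change was -0.52 ± 0.62 (SE; adjusted p = 0.771 by edgeR) and turned to 0.40 without normal library 3.

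Il34 (chr8:110741829-110805924, minus strand), the other ligand of Csf1r, was at 13.2, 15.5 and 7.17 CPM in CAF libraries 1 to 3 and at 6.12, 8.87 and 53.8 CPM in normal libraries 1 to 3. Normal library 3 again stood above the other 5. CAF against normal, its log2 fold change was -0.91 ± 0.84 (SE; adjusted p = 0.695 by edgeR), and without normal library 3 it was 0.63 ± 0.57 (SE; adjusted p = 0.598 by edgeR). With limma-voom on all 6 libraries it was -0.018 ± 0.72 (SE; adjusted p = 0.993 by limma-voom). The genes Gm15894 and Gm15895 overlap Il34 on the opposite strand. For both ligands of Csf1r the sign thus rested on normal library 3.

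Csf3 (chr11:98701263-98703629), the growth factor of neutrophils, was at 8.78, 11.2 and 9.20 CPM in CAF libraries 1 to 3 (6, 81 and 68 counts). Each normal library had 1 count, which is 0.408, 1.27 and 1.25 CPM in normal libraries 1 to 3. All CAF libraries were above all normal libraries, and the CPM values of the CAF libraries lay close together. CAF library 1 rested on 6 counts and each normal library on 1. A level of 3 counts is 4.39 CPM in CAF library 1 and 1.22, 3.80 and 3.75 CPM in normal libraries 1 to 3. The pooled rate was 10.1 CPM in CAF and 0.743 CPM in normal libraries. Their ratio was 13.6, with a 95% exact counting interval of 4.58 to 66.8 that does not cover the spread between libraries. In the fit across all genes its log2 fold change was 3.55 ± 0.69 (SE), with an adjusted p of 0.0605 by edgeR. This lies above the 95th percentile of all genes tested. Nothing is read from that place, since Csf3 passed the filter only through its CAF counts. Adjusted p was 0.013 with DESeq2, 0.0312 by edgeR without normal library 3, and 0.0955 and 0.16 without CAF library 1 and normal library 2. In the other 3 fits that left out a library Csf3 did not pass the filter. Against normal library 3 alone, with its 1 count, the fitted log2 fold change was 3.01, again with no replicate on the normal side.

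Neutrophil markers, all 8 with counts, summed to 202, 2206 and 335 CPM in CAF libraries 1 to 3 and to 30.2, 754 and 123 CPM in normal libraries 1 to 3. All 6 that were tested had a positive log2 fold change, with a median of 1.76, against 0.06 over all genes tested, and 0 were called by edgeR. Mmp9, Cxcr2 and Ly6g are named from this list after their values were seen. Mmp9, a secreted protease that other cells also make, had 72, 523 and 178 counts in CAF libraries 1 to 3 and 3, 6 and 1 counts in normal libraries 1 to 3 (adjusted p = 0.0607 by edgeR and 6.1e-05 by DESeq2). Mmp9 showed no overlap between the groups, which held for 1 of the 8 neutrophil markers, against 10.6% of all genes tested with CAF higher. Cxcr2, a chemokine receptor of neutrophils, had 6, 41 and 9 counts in CAF libraries 1 to 3 and 1, 0 and 1 counts in normal libraries 1 to 3. Ly6g, a surface marker of mouse neutrophils, had 0, 76 and 12 counts in CAF libraries 1 to 3 and 0, 2 and 0 counts in normal libraries 1 to 3. The gate gene Ptprc (CD45) had 0, 40 and 10 counts in CAF libraries 1 to 3 and 0, 3 and 0 counts in normal libraries 1 to 3. In CPM the groups overlapped for Cxcr2, Ly6g and Ptprc. Cxcr2 was at 1.22 CPM in CAF library 3 and at 1.25 CPM in normal library 3. Ly6g was at 1.62 CPM in CAF library 3 and at 2.53 CPM in normal library 2, and Ptprc at 1.35 and 3.80 CPM in the same libraries. The part of neutrophil RNA in the Csf3 difference was not tested.

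Tslp (chr18:32815383-32819797), an alarmin that acts on dendritic cells and type-2 immune cells, had 1, 16 and 71 counts in CAF libraries 1 to 3 and 0, 2 and 0 counts in normal libraries 1 to 3. CAF library 3 stood apart at 9.60 CPM, while CAF libraries 1 and 2 (1.46 and 2.21 CPM) were below normal library 2 (2.53 CPM). The pooled ratio was 11.6, with a 95% exact counting interval of 3.12 to 97.3 that does not cover the spread between libraries. Without the filter the log2 fold change was 3.03 ± 1.39 (SE; adjusted p = 0.332 by edgeR), and 1.63 ± 1.59 without CAF library 3. An antisense gene, 4930455D15Rik, overlaps Tslp.

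**Figure D4:**
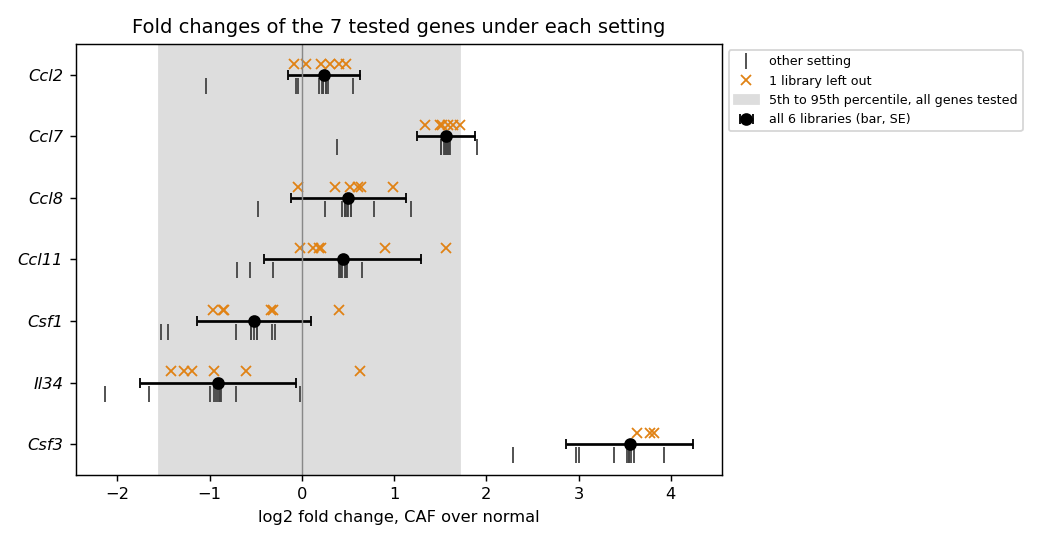
Log2 fold change, CAF over normal, of the 7 genes that passed the filter (black, all 6 libraries with SE; orange crosses, 1 library left out; ticks, other settings; grey, 5th to 95th percentile of all genes tested, -1.55 to 1.71). Ccl7 and Csf3 are positive in every setting shown, and the other 5 genes have values on both sides of 0.

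Scaled to the summed counts of the fibroblast markers in place of the whole library, the median of all genes was -1.12 (log2), beside 0.06 with whole libraries. On that scale the log2 fold change was 0.39 for Ccl7 (adjusted p = 0.762 by edgeR) and 2.29 for Csf3 (adjusted p = 0.243 by edgeR), which is 1.51 and 3.41 above the median of all genes. Per 10000 fibroblast marker counts Csf3 had 9.48, 4.67 and 3.24 counts in CAF libraries 1 to 3 and 0.853, 1.38 and 0.994 counts in normal libraries 1 to 3. These values did not overlap, but each normal value rested on 1 count of Csf3. Ccl7 had 159.5, 90.9 and 47.1 counts in CAF libraries 1 to 3 and 124, 56.6 and 45.7 counts in normal libraries 1 to 3. Per fibroblast marker count the Ccl7 groups therefore overlapped. Most of the marker sum in each library came from the matrix genes Col1a2, Col3a1 and Dcn, named after their values were seen. Their log2 fold changes were 1.09 ± 0.51, 2.02 ± 0.85 and 0.82 ± 0.58 (SE), and the scale follows mainly their counts. All 10 markers had a positive log2 fold change, with a median of 1.57. The lowest was that of the receptor gene Pdgfra, at 0.0074 ± 0.67 (SE). Those of Thy1, Pdpn and Fap, surface genes named after their values were seen, were the highest of the 10, at 2.62 ± 0.49, 2.29 ± 0.76 and 2.40 ± 1.18 (SE). Fap had 1 count in CAF library 1 and 4, 7 and 0 counts in normal libraries 1 to 3. Pi16, also named after its values were seen, was at 0.12 ± 0.55 (SE), with overlapping groups.

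Of 14 receptors that bind these signals or clear them, 9 had counts and 6 were tested, with 0 called in either direction by edgeR and DESeq2. At an unadjusted p under 0.05 by edgeR 1 was higher and 0 lower, against 7.37% and 7.97% of all genes tested. The median log2 fold change of the 6 was 0.42, against 0.06 over all genes tested. The gene of smallest p was Sdc1, a proteoglycan known to bind Il34, with 492, 379 and 257 CPM in CAF libraries 1 to 3 and 184, 200.1 and 96.3 CPM in normal libraries 1 to 3. These groups did not overlap (log2 difference 1.23 ± 0.41, SE; adjusted p = 0.203 by edgeR). Ackr4, a chemokine scavenging receptor, followed at 1.16 ± 0.85 (SE; adjusted p = 0.598 by edgeR). Csf1r, named after its values were seen, was at 4.39, 4.28 and 9.87 CPM in CAF libraries 1 to 3 and at 2.45, 13.9 and 1.25 CPM in normal libraries 1 to 3, with no separation. Csf3r, named after its values were seen, had 4, 34 and 3 counts in CAF libraries 1 to 3 and 0 in every normal library. Its pooled rate was at least 3.60-fold higher in CAF, with 3 counts over the normal group as the floor (adjusted p = 0.168 by DESeq2). This pooled bound does not cover the spread between libraries. In CAF library 3 Csf3r was at 0.406 CPM. A count of 0 allows up to 1.22, 3.80 and 3.75 CPM (3 counts) in normal libraries 1 to 3.

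Of 15 further CC chemokines 9 had counts, and 3 were tested, with 0 called by edgeR and 0 at an unadjusted p under 0.05. Of all genes tested 7.37% were higher and 7.97% lower at that unadjusted p. Ccl25, a chemokine of gut-homing T cells, had an adjusted p of 0.749 (log2 fold change 0.58 ± 0.65, SE) and Ccl6, a chemokine of myeloid cells, of 0.951 (-0.23 ± 1.02) by edgeR. The median log2 fold change of the 3 was -0.05. Ccl9 and Ccl12 were not tested and are named after their values were seen. Ccl9, another chemokine of myeloid cells, had 2, 80 and 36 counts in CAF libraries 1 to 3 and 0 in every normal library, so that its pooled rate was at least 10.4-fold higher in CAF by the same floor (adjusted p = 0.0142 by DESeq2). Ccl12, the cluster neighbour of Ccl8, had 5, 29 and 12 counts in CAF libraries 1 to 3 and 0 in every normal library, at least 4.04-fold higher in CAF (adjusted p = 0.0678 by DESeq2). Both bounds are pooled and do not cover the spread between libraries. Ccl9 was at 2.93 CPM in CAF library 1 and Ccl12 at 1.62 CPM in CAF library 3. A count of 0 allows up to 3.80 and 3.75 CPM (3 counts) in normal libraries 2 and 3. Macrophage and monocyte markers, of which 14 of 15 had counts, summed to 57.1, 198 and 150 CPM in CAF libraries 1 to 3 and to 75.5, 424 and 42.5 CPM in normal libraries 1 to 3. Their part in these results was not tested.

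Of 10 further haematopoietic and alarmin cytokines 6 had counts and 3 were tested, with 0 called by edgeR and a median log2 fold change of -0.35. Il33 (1 gene) was higher at an unadjusted p under 0.05 by edgeR, against 7.37% of all genes tested. It was the 1 gene called higher by DESeq2, against 3.12% of genes. Il33, an alarmin of type-2 immunity, was at 19.0, 332 and 248 CPM in CAF libraries 1 to 3 and at 20.4, 34.2 and 11.3 CPM in normal libraries 1 to 3. CAF libraries 2 and 3 were far above all others, and CAF library 1 lay among the normal libraries. For Il33 the log2 fold change was 3.21 ± 0.93 (SE; adjusted p = 0.142 by edgeR and 0.00908 by DESeq2). Flt3l, a growth factor of dendritic cell precursors, stood at -0.38 ± 0.51 on the same scale (SE; adjusted p = 0.794 by edgeR). Csf2 (granulocyte-macrophage colony-stimulating factor), named after its values were seen, had 3, 73 and 25 counts in CAF libraries 1 to 3 and 1, 1 and 0 counts in normal libraries 1 to 3, a pooled ratio of 13.3 (95% exact counting interval 3.59 to 111; adjusted p = 0.0893 by DESeq2).

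Several of these chemokines and Csf3 are known targets of NF-kB signalling. Of 20 genes of that pathway and its feedback, 19 had counts and 18 were tested, with 0 called by edgeR and DESeq2. At an unadjusted p under 0.05 by edgeR 0 of them were higher and 0 lower, against 7.37% and 7.97% of all genes tested. Their median log2 fold change was 0.15. The genes of smallest p were Nfkbie, an inhibitor of NF-kB, at 1.11 ± 0.51 (SE; adjusted p = 0.365 by edgeR), and Tnip1, a partner of Tnfaip3, at 0.65 ± 0.32 (SE; adjusted p = 0.396 by edgeR).

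Of 19 inducing cytokines and their receptors 17 had counts and 12 were tested, with 0 called by edgeR and a median log2 fold change of 0.66. At an unadjusted p under 0.05, 2 were higher, Il4ra and Il13ra1 (the second named after its values were seen), and 1 was lower, Il17rc. Of all genes tested 7.37% were higher and 7.97% lower at that unadjusted p. Il17rc, a subunit of the interleukin-17 receptor, was at 46.8, 36.6 and 45.6 CPM in CAF libraries 1 to 3 and at 90.2, 79.8 and 105 CPM in normal libraries 1 to 3. Its log2 difference was -1.10 ± 0.29 (SE), with an adjusted p of 0.11 by edgeR and 0.0134 by DESeq2. Il17ra, another subunit, named after its values were seen, went the other way. It was at 45.4, 72.2 and 44.5 CPM in CAF libraries 1 to 3 and at 29.0, 36.7 and 33.8 CPM in normal libraries 1 to 3. Its log2 difference was 0.72 ± 0.34 (SE), with an adjusted p of 0.37 by edgeR. Il4ra, the interleukin-4 receptor chain, was at 38.0, 47.3 and 20.8 CPM in CAF libraries 1 to 3 and at 8.57, 12.7 and 16.3 CPM in normal libraries 1 to 3 (log2 difference 1.53 ± 0.47, SE; adjusted p = 0.165 by edgeR). For both genes the libraries of the groups did not overlap.

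**Figure D5:**
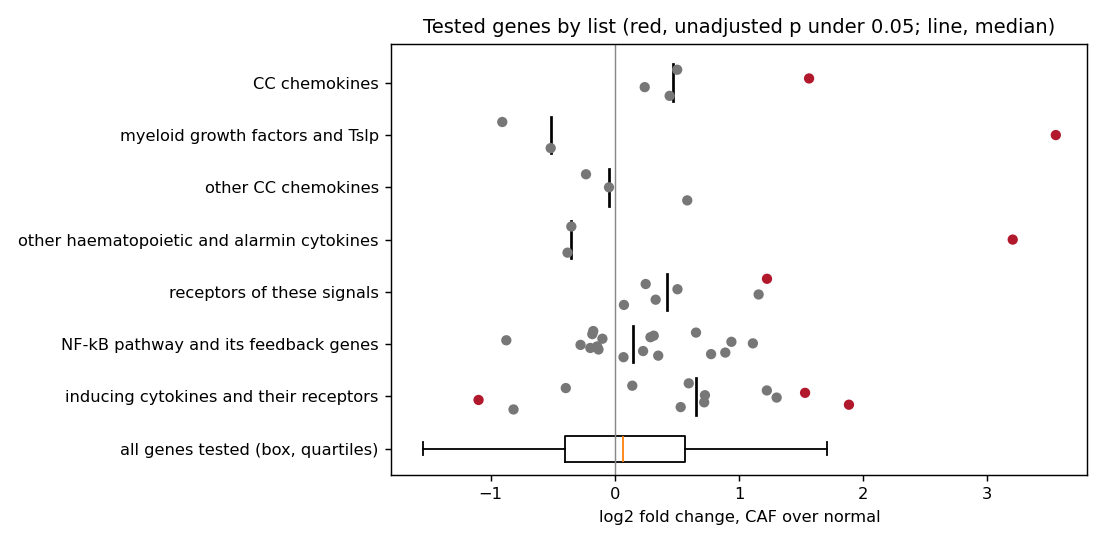
Log2 fold change, CAF over normal, of each tested gene by list (1 point per gene; red, unadjusted p under 0.05 by edgeR; line, median of the list; box, quartiles of all 10148 genes tested, with whiskers at the 5th and 95th percentile). Csf3 and Il33 lie farthest to the right, and Ccl7 is the only red point among the CC chemokines.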

How the data were processed

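MARS-seq counts the 3′ ends of polyadenylated RNA. Per the submitters' processing notes the reads went through cutadapt, STAR, HTSeq and DESeq2 with mm10, and no versions are named. Annotation, strand use and handling of molecular identifiers: not given in the sources used here. Raw counts per gene, as deposited by the authors, were the values tested. The deposited normalized signal, named so per the file headers, equals the count divided by 1 size factor per library and was only compared with it. The regularized log2 values of the authors were left out. Log2 fold changes and p-values of the authors' deposited comparison are quoted only where named. Every gene in the table had at least 6 counts in some library.

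Counts of the whole table were fitted with edgeR 4.0.16 in R 4.3.3 (filterByExpr, trimmed mean of M-values, quasi-likelihood F test on the group, no covariate). P-values were adjusted after Benjamini and Hochberg over 10148 genes, at a threshold of 0.05, and standard errors, derived from F, are approximate. Exact intervals are at 95% and cover counting error only. Alternatives were DESeq2 1.42.0, voom of limma 3.58.1, other scalings and filters, each library left out, normal libraries 1 and 2 left out, the number of mice as covariate and removal of gland genes. The fit was tested on simulated data. No mouse is shared between libraries by the labels. The genes, lists and tests were chosen with earlier results of these data known. By rule the text names the 10 genes, of each other list of signals, receptors and pathway genes the called genes or else up to 2 of smallest p, the 3 genes nearest in pattern to Ccl2 and to Ccl7, and sort genes with Pdgfra and Col1a1. The rule takes no genes from the cell type marker lists, and other genes are marked where they are named. Coordinates and sequences are of GENCODE M21. The RefSeq promoter table matched 3 of the 10 genes, and no promoter is shown.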

Additional observations from a re-analysis of the deposited data

How the results depend on the processing

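No paired analysis was possible because the labels give the CAF and normal libraries no shared replicate numbers. The count of genes called was 91 higher and 21 lower with edgeR, 400 higher and 535 lower with DESeq2, 49 higher with limma-voom and 141 higher with library totals alone. Lower calls numbered 40 with no filter, 12 with at least 10 counts in 3 libraries, 8 with the number of mice as covariate and 555 when scaled to fibroblast markers. With 1 library left out, 0 to 412 genes were called higher and 0 to 781 lower, the highest counts without normal library 3. Without normal library 1, 0 were called in either direction. Without any 1 of the CAF libraries, 0 were called lower too. Of the 10 genes described, 0 were called lower in any setting, and 2 (Ccl7 and Csf3) were called higher with DESeq2, with library totals alone and without normal library 3 (0 to 2 over the fits with 1 library left out). With library totals alone the median of all genes was 0.40. Without normal libraries 1 and 2 the median of all genes was 0.29. Log2 fold changes with 1 library left out ran from -0.083 to 0.48 for Ccl2, -0.042 to 0.99 for Ccl8, -0.018 to 1.56 for Ccl11, -0.97 to 0.40 for Csf1 and -1.42 to 0.63 for Il34. Among other settings Ccl2 and Ccl11 turned to -0.065 and -0.56 without normal libraries 1 and 2, to -0.044 and -0.31 with the number of mice as covariate and to -1.03 and -0.70 when scaled to fibroblast markers, where Ccl8 was at -0.47. Without normal libraries 1 and 2 Csf1 was at -1.45 and Il34 at -2.13. The cause of these changes was not tested. The shallow libraries (CAF library 1 and normal libraries 2 and 3) limit what can be seen of Ccl5, Ccl20, Csf3 and Tslp, of each of which no such library holds more than 21 counts.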
